A study of Mus musculus with 3 samples.

Results

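Hes1, Hey1, Mib1 and Poglut1 are 4 genes of the Notch pathway, picked by name from 38205 gene identifiers and described here in blood stem and progenitor cells with and without a DNMT3B7 transgene. All 4 were listed once in each library with an estimate marked OK. They were picked with their values in these libraries known, so the levels and ratios below describe the libraries, and no p-value is given for any of them. LSK cells, sorted as negative for lineage markers and positive for Sca1 and c-Kit, were taken from C57Bl/6 fetal livers at E14.5. The 3 groups were embryos homozygous for the DNMT3B7 transgene, embryos hemizygous for it and wild-type (WT) embryos without it, with 1 RNA sequencing library per genotype. The DNMT3B7 protein is a shortened DNMT3B, the DNA methyltransferase, that lacks its catalytic domain. Each library came from cells pooled from 4 to 5 embryos, so the spread between embryos is not known. The promoter that drives the transgene is not given in the sources used here.

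Notch is a receptor that is cut by proteases when it binds a ligand on a neighbouring cell, and its freed inner part enters the nucleus, binds the DNA-binding protein RBPJ and switches on target genes. Mib1 is the ubiquitin ligase that acts in the cell that sends the signal, where it marks ligands for the uptake that pulls the receptor open. Poglut1 adds glucose to the receptor in the cell that receives it. Hes1 and Hey1 are transcriptional repressors of the basic helix-loop-helix class and are well-known targets of the pathway. In fetal blood development, Notch signalling is best known for the emergence of stem cells from vessel walls and for the choice of the T cell fate.

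Values were read only in stretches of chromosomes where high values were common. Why they were rare in other stretches was not tested. Many genes that every cell uses were listed at 0, and high values stood in runs that began at the starts of 10 chromosomes. On chromosome 16 the run took in 497 of the 529 genes fitted. Comparisons were limited to these runs and the mitochondrial mRNAs, 1454 genes in all, of which 826 lay on chromosome 16. Of 20 constitutive genes inside the runs, kept out of their definition, 18 had high values, against 15 of 369 outside them. The values are the authors' FPKM, fragments per transcript length and library depth, divided by 1 common factor of 4245, and are called rescaled FPKM. Without small RNAs the deposited values summed to 3652554357 in the homozygous, 4381970736 in the hemizygous and 4880086856 in the WT library, far above what FPKM normally reach. Their absolute scale is therefore not known, and levels can be set against each other within these tables but not against FPKM of other studies. Low values implied about 2320000 fragments on genes in the homozygous, 3020000 in the hemizygous and 3030000 in the WT library with median transcript lengths, and 4810000, 5950000 and 5690000 in the same order with the longest transcripts. Ly6a and Kit, which encode the sort markers Sca1 and c-Kit, lay outside the runs, so the sort could not be checked on them.

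Mib1 (ENSMUSG00000024294, chromosome 18) was the most abundant of the 4 genes in every library and differed little between them. It had 207 rescaled FPKM in the homozygous library (95% counting interval 198 to 216), 197 in the hemizygous library (189 to 205) and 206 in the WT library (197 to 215). The 3 intervals overlapped one another, but with fragments estimated from the longest transcript the hemizygous interval (193 to 201) lay below that of the homozygous (203 to 212) and of the WT library (202 to 210.5). The log2 ratio of value + 1 was 0.01 for homozygous versus WT, -0.07 for hemizygous versus WT and 0.07 for homozygous versus hemizygous. The counting interval of the plain log2 ratio ran from -0.08 to 0.10 for homozygous versus WT, which leaves room for a difference of about that size in either direction before any spread between embryos is counted. These intervals come from fragments estimated with the median transcript length of the gene and cover counting error only.

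Mib1 was also the last gene before the end of its run on chromosome 18. Of the 12 protein-coding genes before it, 7 had a mean of at least 10 rescaled FPKM, and of the 12 after it, 0 did. Its neighbour Snrpd1, a core protein of the spliceosome, had 1129 rescaled FPKM in the homozygous, 1038 in the hemizygous and 1231 in the WT library. Whether every exon of Mib1 was counted cannot be told from 1 value per gene and was not tested. A loss common to the libraries would lower its level and leave its ratios as they are.

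Poglut1 (ENSMUSG00000034064, chromosome 16), the O-glucosyltransferase that modifies the EGF repeats of the receptor, was the second most abundant. It had 106 rescaled FPKM in the homozygous library (95% counting interval 94.9 to 118), 111 in the hemizygous library (101 to 123) and 112 in the WT library (100.3 to 124). These 3 intervals overlapped one another. The log2 ratio of value + 1 was -0.07 for homozygous versus WT, -0.002 for hemizygous versus WT and -0.07 for homozygous versus hemizygous. The plain log2 ratio of homozygous to WT had a counting interval from -0.29 to 0.15. Poglut1 stood deep inside the run on chromosome 16, with 248 compared protein-coding genes after it, and for homozygous versus WT the log2 ratio was 0.02 for its neighbour Timmdc1 and 0.03 for its neighbour Tmem39a.

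With 1 common factor for all libraries, both enzyme genes varied less than most compared genes. The largest of the 3 absolute log2 ratios was 0.072 for Mib1 and 0.071 for Poglut1, against a median of 0.235 over the 766 compared genes that had at least 5 rescaled FPKM in every library. Of these 766 genes, 56 stayed below the figure for Mib1 and 54 below that for Poglut1. The figure for Mib1 was 0.14 under median-ratio scaling and 0.56 with libraries scaled to equal sums, and this rank was not computed under those scalings. Genes with more fragments vary less by counting alone, and the effect of that on this rank was not tested.

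**Figure D1:**
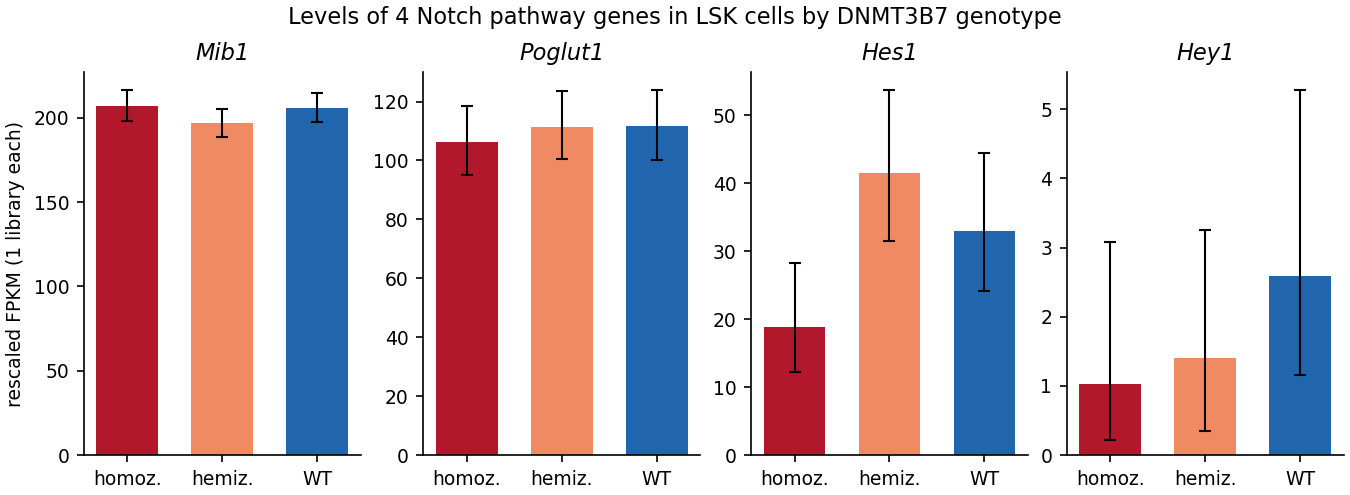
Rescaled FPKM (y axis, linear from 0, own scale per panel) of Mib1, Poglut1, Hes1 and Hey1 in the homozygous, hemizygous and WT library, 1 bar per library. Error bars are 95% counting intervals from estimated fragments. The bars of Mib1 (207, 197 and 206) and Poglut1 (106, 111 and 112) are level, Hes1 is lowest in the homozygous library (18.9), and the bars of Hey1 overlap in their intervals.

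A promoter sequence was held in the RefSeq table used here for 4 of the 7 listed Notch genes that could be read, Poglut1, Xxylt1, Crebbp and Dtx3l. Xxylt1 is the xylosyltransferase that extends the sugar chain which Poglut1 starts. The promoters of these 2 enzymes of the same sugar chain are shown, from 250 bases before the annotated start to 30 bases after it, 5′ to 3′ on the strand of the gene. Capitals mark the core motif of RBPJ (TGGGAA, or TTCCCA on the other strand) and the E-box bound by HES and HEY proteins (CACGTG), both searched on both strands.
Poglut1, GRCm38.p6 chr16:38550227-38550506, minus strand: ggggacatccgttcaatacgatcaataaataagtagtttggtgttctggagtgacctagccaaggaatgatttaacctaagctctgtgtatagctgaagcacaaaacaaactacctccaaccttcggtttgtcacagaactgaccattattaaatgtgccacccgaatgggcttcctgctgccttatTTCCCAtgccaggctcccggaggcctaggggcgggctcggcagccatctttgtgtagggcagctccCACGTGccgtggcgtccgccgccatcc
Xxylt1, GRCm38.p6 chr16:31081403-31081682, minus strand: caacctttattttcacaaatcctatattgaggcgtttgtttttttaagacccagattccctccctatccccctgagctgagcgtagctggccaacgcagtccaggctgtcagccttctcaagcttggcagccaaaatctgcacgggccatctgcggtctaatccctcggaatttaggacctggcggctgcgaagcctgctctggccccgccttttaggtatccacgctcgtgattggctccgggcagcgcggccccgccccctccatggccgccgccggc
The Poglut1 window holds TTCCCA from position -63 and CACGTG from position 4, counted from the start of the gene. The Xxylt1 window holds neither. The RBPJ core is found in 23.8% and the E-box in 6.8% of all 32851 promoter windows of this length. The windows hold 12 CpG sites, the sites at which DNA is methylated in mammals, for Poglut1 and 18 for Xxylt1, against a median of 6 over all windows. Fewer sites were held by 62.5% of all windows than by that of Poglut1 and by 73.2% than by that of Xxylt1. Methylation was not measured in these libraries.

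Hes1, a repressor that keeps many stem and progenitor cells from differentiating (ENSMUSG00000022528, chromosome 16), was the 1 gene of the 4 whose log2 ratio of value + 1 passed 2-fold, for homozygous versus hemizygous, and it fell short of that with libraries scaled to equal sums (-0.76). It had 18.9 rescaled FPKM in the homozygous library (95% counting interval 12.2 to 28.3), 41.5 in the hemizygous library (31.5 to 53.6) and 33.0 in the WT library (24.1 to 44.5). The intervals of the homozygous and hemizygous libraries did not overlap, while those of the homozygous and WT and of the hemizygous and WT libraries did. The log2 ratio of value + 1 was -1.09 for homozygous versus hemizygous, with a counting interval of the plain ratio from -1.88 to -0.42. Hes1 in the homozygous library was thus at 0.46 of its hemizygous level, and in a bulk library less RNA per cell cannot be told apart from fewer expressing cells.

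Against WT the ratios of Hes1 were smaller and lay on opposite sides of 0. The log2 ratio of value + 1 was -0.77 for homozygous versus WT, with a counting interval of the plain ratio from -1.58 to -0.05. It was 0.32 for hemizygous versus WT, with an interval from -0.27 to 0.92. With fragments estimated from the longest transcript, which allots Hes1 169 rather than 43.8 fragments in the WT library, the interval for hemizygous versus WT ran from 0.03 to 0.62, so whether it holds 0 depends on the length taken. For homozygous versus hemizygous the whole longest-transcript interval lay below -0.77. No 50-base stretch of the Hes1 transcripts occurs in another annotated transcript, and no exon of another gene overlaps it.

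The hemizygous library was highest and the homozygous library lowest for Hes1, an order shared by 147 of the 766 genes with at least 5 rescaled FPKM in every library (19.2%). The size was less common. A homozygous to hemizygous ratio as low as that of Hes1 or lower was found for 6 of the 766 genes, Hes1 among them. Adding a hemizygous to WT ratio at least as high as that of Hes1 left 4, which were Hes1, the metallopeptidase gene Lmln and the pseudogenes Gm6293 and Gm15349. This count was made after the values of Hes1 had been seen. The gene before Hes1, Opa1, which encodes a mitochondrial fusion protein, had 122 rescaled FPKM in the homozygous, 130.1 in the hemizygous and 119 in the WT library.

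Hey1 (ENSMUSG00000040289, chromosome 3), a repressor best known from vessel and heart development, was the least abundant of the 4 genes, close to the lower limit of what could be compared. It had 1.03 rescaled FPKM in the homozygous library (95% counting interval 0.22 to 3.08), 1.40 in the hemizygous library (0.35 to 3.25) and 2.60 in the WT library (1.16 to 5.27). All 3 intervals overlapped. These values stood for an estimated 2.94, 4.42 and 7.76 fragments, or 8.82, 13.2 and 23.3 with the longest transcript. The log2 ratio of value + 1 was -0.82 for homozygous versus WT, -0.58 for hemizygous versus WT and -0.24 for homozygous versus hemizygous.

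The plain log2 ratio of Hey1 for homozygous versus WT was -1.33, past 2-fold, because the added 1 no longer holds the ratio back. Its counting interval ran from -3.89 to 0.72 with the median and from -2.58 to -0.12 with the longest transcript. For the other 2 comparisons both intervals held 0. Whether the counting interval of Hey1 held 0 thus depends on the length taken in 1 comparison. These intervals cover counting error only, so with 1 library per genotype they cannot show whether Hey1 differed between genotypes. Hey1 lay inside the run on chromosome 3, with 25 compared protein-coding genes after it. Its neighbour Mrps28, a protein of the mitochondrial ribosome, had 394 rescaled FPKM in the homozygous, 370 in the hemizygous and 408 in the WT library.

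**Figure D2:**
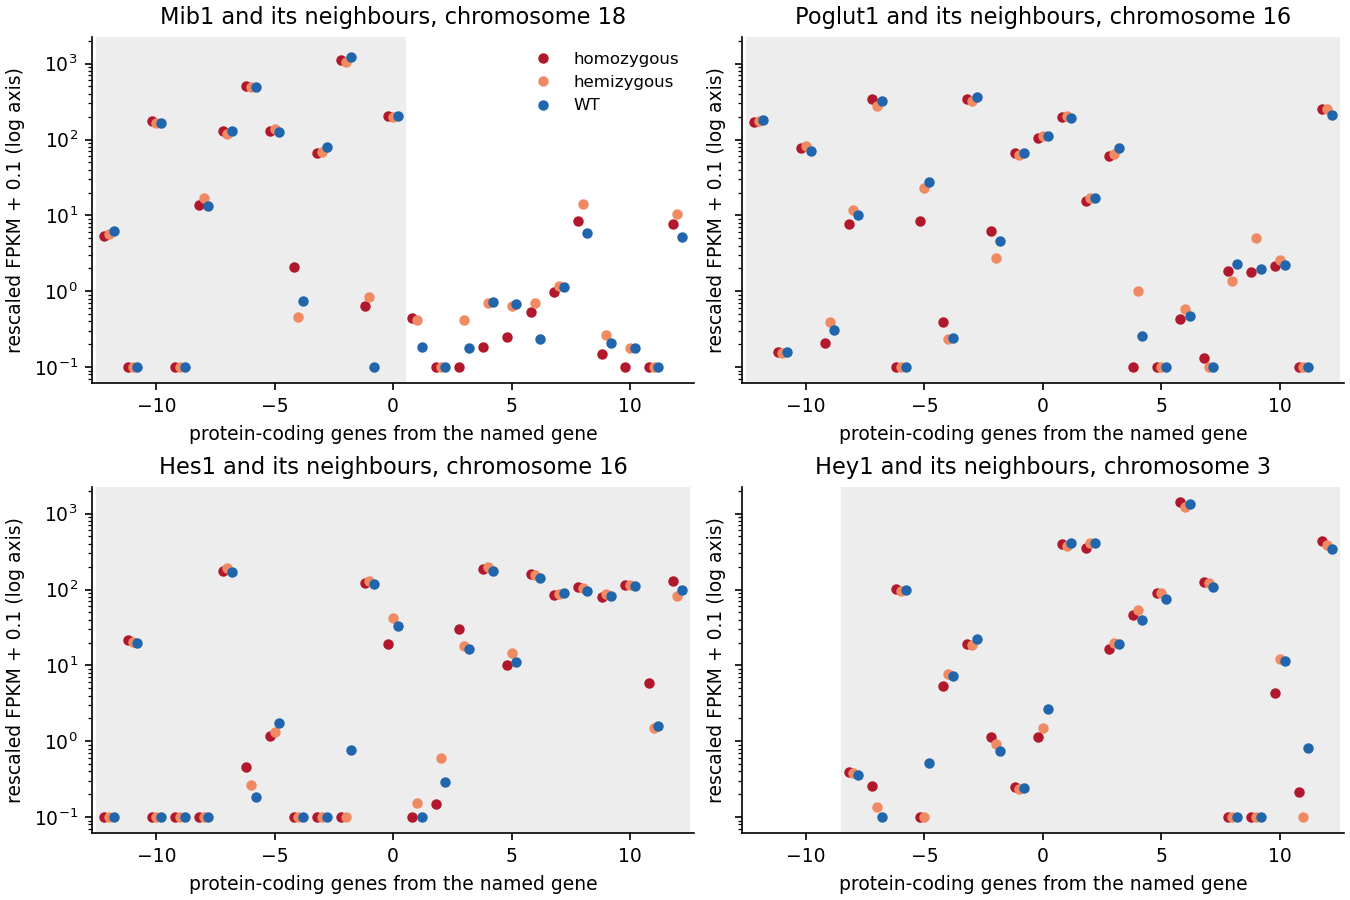
Rescaled FPKM + 0.1 (log y axis) of each gene at position 0 and of up to 12 protein-coding genes on either side in chromosome order (x axis), for the homozygous, hemizygous and WT library. Shading marks genes that were compared. High values end right after Mib1 on chromosome 18, with 0 of the next 12 genes at a mean of 10 or more, while Poglut1, Hes1 and Hey1 have high genes on both sides.

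The order of the levels was Mib1, Poglut1, Hes1 and Hey1 in each of the 3 libraries, per transcript length, and the counting intervals of neighbours in that order did not overlap in any library. Of 1061 compared nuclear protein-coding genes, Mib1 stood above 85.1% in the homozygous, 83.8% in the hemizygous and 84.4% in the WT library. Poglut1 stood above 72.4%, 72.8% and 73.8% of them in the same order of libraries. Hes1 stood near the middle, above 48.9%, 56.9% and 54.1%, and Hey1 above 30.6%, 32.1% and 35.5%.

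Setting the targets beside the enzymes within a library removes the scaling of libraries from the comparison. Hes1 stood at 9.12 per 100 of Mib1 in the homozygous, 21.1 in the hemizygous and 16.01 in the WT library. Per 100 of Poglut1 it stood at 17.8, 37.2 and 29.6 in the same order. The log2 difference of Hes1 relative to Mib1 was -1.21 for homozygous versus hemizygous and -0.81 for homozygous versus WT, and relative to Poglut1 it was -1.06 and -0.73. Hey1 stood at 0.50 per 100 of Mib1 in the homozygous, 0.71 in the hemizygous and 1.26 in the WT library. No counting interval was computed for these within-library ratios. Those of Hey1 rest on an estimated 2.94 fragments in the homozygous, 4.42 in the hemizygous and 7.76 in the WT library. With the median transcript length, the intervals of the plain Hey1 ratios held 0 in every comparison. The within-library ratios describe target values beside enzyme values and do not show that the enzymes were unchanged.

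Read against all compared genes, the members' counts past 2-fold were small. For homozygous versus WT, 0 of 4 passed in either direction, beside 2.09% of 955 genes higher and 2.3% lower. For hemizygous versus WT, 0 of 4 passed, beside 1.78% of 954 genes higher and 0.943% lower. For homozygous versus hemizygous, Hes1 was the 1 of 4 that passed, as lower, beside 2.91% of 962 genes lower and 1.66% higher. Among genes with at least 5 rescaled FPKM in either library, where Hes1 lies, 1.25% were higher and 1.5% lower for homozygous versus WT, 0.872% higher and 0.125% lower for hemizygous versus WT, and 0.623% higher and 1.75% lower for homozygous versus hemizygous. The 3 comparisons share libraries, so the ratios of a gene to WT and between the transgenic libraries are not separate measurements.

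**Figure D3:**
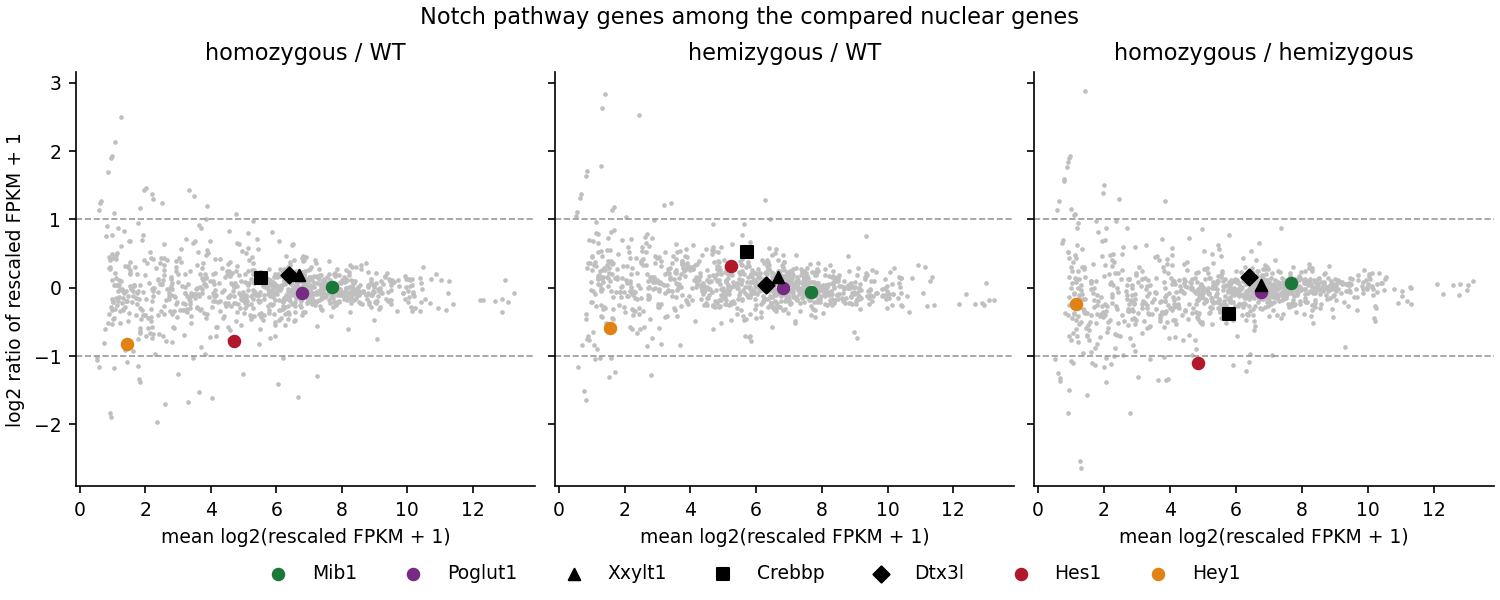
Log2 ratio of rescaled FPKM + 1 (y axis) against the mean of log2(rescaled FPKM + 1) of the 2 libraries (x axis), for the compared nuclear genes (grey) and 7 Notch pathway genes (coloured circles for the 4 genes described, black shapes for the other 3). Dashed lines mark 2-fold. Hes1 lies below the lower line for homozygous versus hemizygous (-1.09), and Hey1 sits at the left edge where grey points spread widely.

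The other genes of the pathway could be read for 3 more members. Of a list of 84 Notch genes by role, 7 lay in the compared runs and all 7 reached a value of 1. None of the 8 ligand, 4 receptor, 10 protease or 13 corepressor genes of the list was among them, so neither the input to the pathway nor its cleavage could be described. Over the 7 genes, 0 were higher and 1, Hes1, was lower past 2-fold for homozygous versus hemizygous, and none passed in the other 2 comparisons. With the 4 genes left out, the median log2 ratio of Xxylt1, Crebbp and Dtx3l was 0.187 for homozygous versus WT, 0.152 for hemizygous versus WT and 0.038 for homozygous versus hemizygous, and 0 of the 3 passed 2-fold. The median over all 7, of which 4 were picked with their values known, was 0.007 for homozygous versus WT, 0.035 for hemizygous versus WT and -0.07 for homozygous versus hemizygous, beside -0.045, 0.022 and -0.055 over all compared genes.

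Xxylt1 had 109 rescaled FPKM in the homozygous, 106 in the hemizygous and 95.2 in the WT library. Its log2 ratio to WT was 0.19 in the homozygous and 0.15 in the hemizygous library, and both counting intervals held 0 with the median transcript length but not with the longest (0.08 to 0.30 and 0.04 to 0.26). Crebbp, the histone acetyltransferase CBP that works as a coactivator with the Notch nuclear complex and with many other factors, had 47.8 rescaled FPKM in the homozygous, 62.5 in the hemizygous and 43.2 in the WT library. Like Hes1 it was highest in the hemizygous library, but its lowest value was that of the WT library. The log2 ratio of Crebbp was 0.52 for hemizygous versus WT, with a plain interval from 0.32 to 0.75, and -0.38 for homozygous versus hemizygous, with an interval from -0.60 to -0.18. With each library scaled to the same sum, the second ratio was -0.03. Dtx3l, a ubiquitin ligase of the Deltex family, had 88.1, 79.2 and 77.3 rescaled FPKM in the homozygous, hemizygous and WT library. Its log2 ratio for homozygous versus WT was 0.19, and the counting interval lay above 0 with the median (0.07 to 0.31) and the longest transcript (0.09 to 0.29). Exons of Parp9 overlap Dtx3l on the opposite strand, and without a stated strand setting their reads cannot be told apart.

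The genes whose pair of log2 ratios to WT lay nearest to that of each member were found among 766 genes with at least 5 rescaled FPKM in every library, over 3 libraries, so likeness here rests on 2 numbers per gene. For Hes1 they were the antisense gene Gm14966, at a distance of 0.09, then Gm15349 and Lmln at 0.18 and 0.25. For Hey1 they were Dexi, the mitochondrial mRNA mt-Nd3 and the pseudogene Gm6142, at 0.11, 0.13 and 0.16. For Mib1 they were Fam133b, Pex2 and Zfp958, at 0.002, 0.005 and 0.013, and for Poglut1 Tra2b, 1810013L24Rik and Stfa1, at 0.01, 0.013 and 0.014. Within a distance of 0.1 lay 87 genes for Mib1 and 92 for Poglut1, against 1 for Hes1 and 0 for Hey1.

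**Figure D4:**
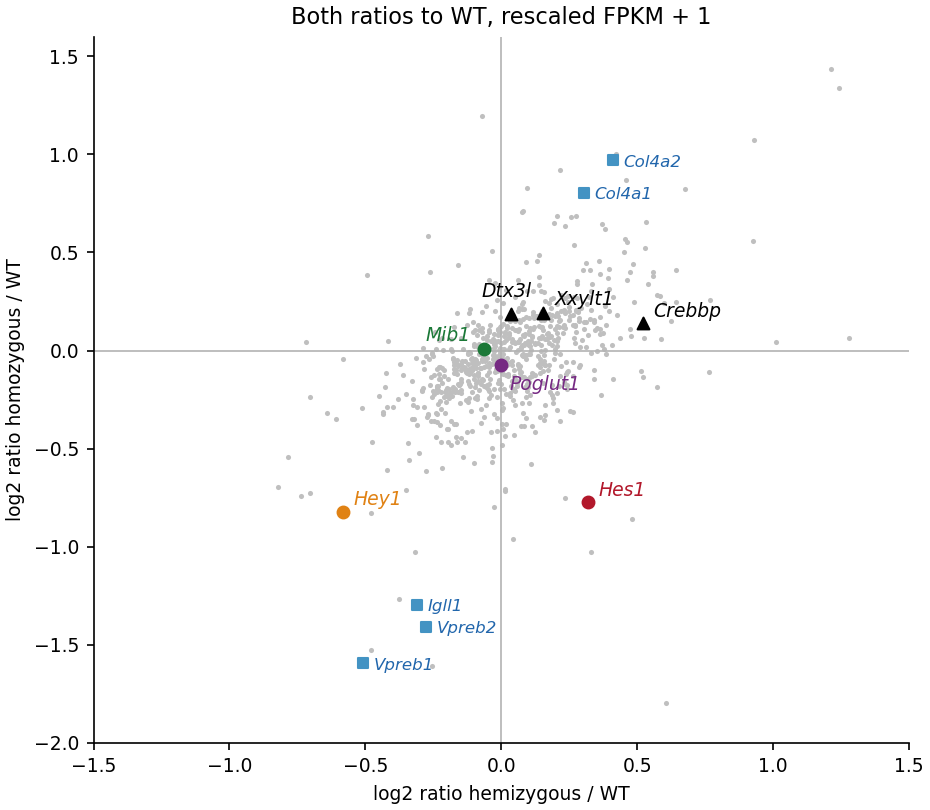
Log2 ratio of hemizygous to WT (x axis) and of homozygous to WT (y axis), rescaled FPKM + 1, for 755 compared nuclear genes with at least 5 rescaled FPKM in every library (grey) and Notch pathway genes (circles and triangles). Squares mark the marker genes Igll1, Vpreb1, Vpreb2, Col4a1 and Col4a2, and the other readable markers are not marked. Hes1 (0.32, -0.77) lies in the lower right, away from Mib1 and Poglut1 near the centre, and Hey1 (-0.58, -0.82) lies in the lower left.

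Hes1 is also active in vessel wall cells and in developing lymphoid cells, and Hey1 in vessel wall cells. The summed values of the readable markers of both cell types differed between the libraries. Of 15 vessel wall and endothelial markers, 5 could be read, and their summed value was 103 in the homozygous, 71.5 in the hemizygous and 56.8 in the WT library. Col4a1 and Col4a2, collagens of the basement membrane, made up most of it, with 45.2, 31.7 and 25.5 for Col4a1 and 54.1, 36.4 and 27.1 for Col4a2 in the same order. The endothelial genes Cldn5 (2.14, 1.93 and 1.63), Jam2 (1.30, 1.08 and 1.23) and Adamts1 (0.72, 0.40 and 1.36) were low in every library. Their counting intervals of the plain log2 ratio for homozygous versus WT all held 0. These were -1.10 to 1.94 for Cldn5, -1.67 to 1.81 for Jam2 and -2.63 to 0.60 for Adamts1. The sum of the 5 markers, made up mostly of Col4a1 and Col4a2, was highest in the homozygous library, where Hes1 and Hey1 were lowest. Whether this sum follows the share of vessel wall cells was not tested.

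Of 7 lymphoid markers, Igll1, Vpreb1 and Vpreb2 could be read, all of them surrogate light chain genes of early B cells. Their summed value was 192 in the homozygous, 400.4 in the hemizygous and 517 in the WT library. It was lowest in the homozygous library, as Hes1 was, but lower in the hemizygous than in the WT library, where Hes1 was not. The counting interval of Hes1 for hemizygous versus WT, -0.27 to 0.92 with the median transcript length, held 0. The 2 hepatocyte markers that could be read, Ahsg and Kng1, summed to 4.81 in the homozygous, 3.82 in the hemizygous and 4.27 in the WT library. Of 8 erythroid markers, Tfrc, Car1, Car2 and Cpox could be read. They summed to 3285 in the homozygous, 4012 in the hemizygous and 3987 in the WT library. With 1 common factor this is the order of libraries that Hes1 has, but the hemizygous and WT sums lay close together. The order depends on the scaling. With libraries scaled to equal sums, the log2 ratio for homozygous versus WT was 0.22 for Tfrc, 0.795 for Car1, 0.26 for Car2 and 0.45 for Cpox. That of Hes1 was -0.24. With the common factor, Tfrc, the transferrin receptor, had the order of Hes1 too. It had 1013 in the homozygous, 1414 in the hemizygous and 1280.3 in the WT library, and a log2 ratio of -0.48 for homozygous versus hemizygous. Car1, a carbonic anhydrase, was highest in the homozygous library, with 76.7 there, 65.025 in the hemizygous and 64.7 in the WT library. Car2, the largest part of the sum, was highest in the WT library, with 1786 in the homozygous, 2091 in the hemizygous and 2200 in the WT library. Cpox had 409 in the homozygous library and nearly equal values in the hemizygous (442.1) and WT (441.6) libraries. The 4 T cell markers and the 3 macrophage markers matched by name lay outside the runs. The part of any of these cells in the Hes1 and Hey1 values was not tested.

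The ratios of all 4 genes depended on how the libraries were scaled. With each library scaled to the same sum over the compared genes, mitochondrial mRNAs included, the median log2 ratio of all compared genes moved up by 0.53 for homozygous versus WT, 0.20 for hemizygous versus WT and 0.35 for homozygous versus hemizygous. Mib1 then stood at 0.56 and Poglut1 at 0.48 for homozygous versus WT, close to the moved median of 0.49, so the sign of Poglut1 in that comparison turns with the scaling. Hes1 stood at -0.24 for homozygous versus WT and at -0.76 for homozygous versus hemizygous, short of 2-fold. Under the other 3 scalings Hes1 lay between -1.07 and -1.03 for homozygous versus hemizygous and stayed past 2-fold.

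**Figure D5:**
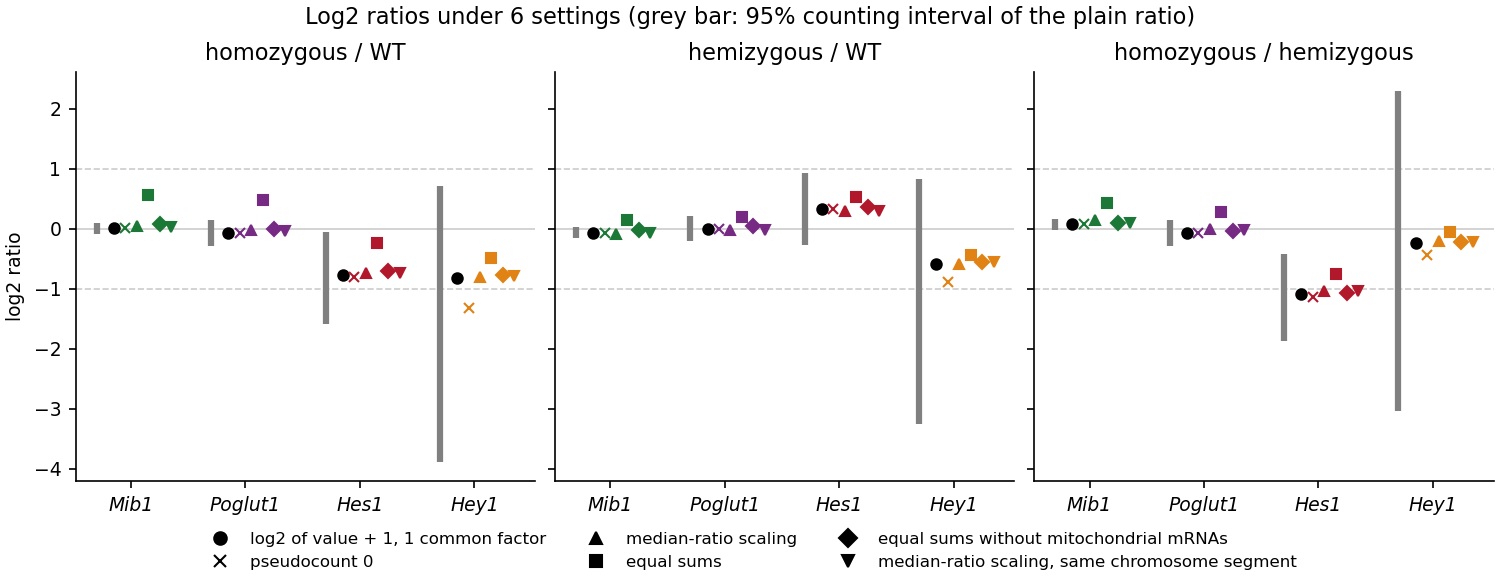
Log2 ratios (y axis) of Mib1, Poglut1, Hes1 and Hey1 in the 3 comparisons under 6 settings, 1 symbol per setting, with the 95% counting interval of the plain ratio as a grey bar. Dashed lines mark 2-fold. Equal sums (squares) lift every gene, with Hes1 at -0.76 for homozygous versus hemizygous, and the bars of Hey1 span several log2 units.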

How the data were processed

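Each of the 3 deposited tables gave FPKM per gene with a status, per the file headers. Per the submitters' processing notes, the authors used Bowtie2, TopHat2 and Cufflinks on mm9, with versions not listed. Which annotation and strand setting they took was not given in the sources used here. Of 38205 identifiers, 36463 were matched to GENCODE M21 (GRCm38), used for gene types, chromosomes, order and transcript lengths.

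The highest row per identifier was kept and divided by 4245. A break was fitted on each chromosome from protein-coding genes with a mean of at least 200000 deposited FPKM, without constitutive genes and large gene families, and kept at a log likelihood gain of at least 10, a limit set after seeing the fits. Genes reaching a value of 1 in 1 of the libraries compared were compared by log2 of value + 1, which understates changes of low genes, and called at 2-fold.

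Low values were examined in genes with 1 transcript, inside and outside the runs. Of these values, 69.4% to 71.7% were whole multiples of 1 unit within 0.05, against 10% by chance. That unit, taken as 1 fragment of 200 bases, gave approximate fragments per gene, exact Poisson intervals for levels and Clopper-Pearson intervals for plain ratios, at 95%. Each genotype had 1 library of pooled embryos and no replicate, so no test between genotypes was possible. The 4 genes, the Notch and marker lists and the tests were chosen with earlier results of these data known. Named genes were the 4, the readable listed genes, the 3 nearest patterns and adjacent genes on the chromosome. Python 3.11.15, pandas 2.3.3, numpy 2.4.6 and scipy 1.17.1 were used. The break fit, the fragment unit and the 2-fold calls were tried on simulated data, and the counting intervals were not.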

Additional observations from a re-analysis of the deposited data

How the results depend on the processing

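Of 84 member ratios under other settings, 79 stayed within the counting interval of the plain ratio. Among these 79 are the ratios with the longest transcript and those with nothing added to the values, which could not move out. The first repeat the main value, and the second are the plain ratios themselves. Wide intervals, such as -3.89 to 0.72 for Hey1 in homozygous versus WT, were also hard to leave. The 1 called ratio, Hes1 for homozygous versus hemizygous, kept its sign under every setting. The 5 that moved were all under equal sums over the compared genes. They were Mib1 at 0.56 for homozygous versus WT, 0.14 for hemizygous versus WT and 0.43 for homozygous versus hemizygous, and Poglut1 at 0.48 for homozygous versus WT and 0.28 for homozygous versus hemizygous. These follow the shift of the median that this scaling makes.

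Counts of genes past 2-fold were the same with no minimum as with a minimum of 1 (42, 26 and 44). This was fixed in advance, since with 1 added a gene below 1 in both libraries cannot pass 2-fold. With a minimum of 5 the counts were lower. For homozygous versus WT the count was 42, against 22 at a value of at least 5, 982 over all genes with status OK and 70 under equal sums, where 61 were higher and 9 lower rather than 20 and 22. For hemizygous versus WT it was 26, against 8, 1131 over all genes and 43 with a pseudocount of 0.1. For homozygous versus hemizygous it was 44, against 19, 1172 and 74 for the same 3 alternatives. The cause was not tested for the pseudocount and the whole table. The longest transcript and the lower gain limit of 5 were chosen after seeing the data. No paired analysis was possible because each genotype had 1 library, and for the same reason no replicate could be left out. Depth limits Hey1 most.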
